A study of Homo sapiens with 24 samples.

Results

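The EGF receptor ligands are a family of 8 genes here: EGF, TGFA, AREG, EREG, HBEGF, BTC, EPGN and NRG1. They were chosen by name, as every non-control spot whose deposited gene name is a member. On array design A (16 arrays) the 8 genes had 11 probes and 20 spots, out of 33407 gene names and 42405 probes. On design B (8 arrays) they had 12 probes and 12 spots, out of 36337 gene names and 50599 probes. The added probe of design B, A_33_P3392192, carries the name NRG1 with another transcript than the other 2 NRG1 probes.

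The series holds 24 two-colour Agilent arrays from 7 established human cancer cell lines. Each combination of line and treatment was hybridised once, so a single array has no replicate. The prostate cancer (PCa) lines were PC3, DU145 and LNCap, the renal cell carcinoma lines A498 and 786O, and the head and neck squamous cell carcinoma lines FaDu and SAS. On every array the treated RNA was labelled with Cy5 and the control RNA of the same line with Cy3, and no array had the dyes swapped. In 12 arrays the line had a transfected microRNA against control microRNA: miR-145 in PC3, DU145 and LNCap, miR-143 in DU145 and PC3, miR-23b and miR-24 in PC3, miR-27b in PC3, 786O and A498, miR-375 in FaDu, and miR-29a in SAS. In 6 arrays it had an siRNA against control siRNA: si-CAV2 in A498 and 786O, si-LAMB3 in FaDu and SAS, and si-GOLM1 in DU145 and PC3. The other 6 had an added compound: genistein, a soy isoflavone, in PC3 and DU145 against a control that the labels call no treatment and the study's methods describe as vehicle (DMSO); wogonin, a plant flavone, in SAS and FaDu against DMSO; and the chemokine CXCL10 in 786O at 12 h and 24 h against no treatment. The arrays of miR-23b, miR-24 and miR-27b in PC3 carry the same control name, and their control channels were closer to each other (SD of the log2 difference 0.185 to 0.196) than other control channels of 1 line (0.343 to 1.01), so these 3 arrays share 1 control sample and are not independent of each other.

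Ligands of this family are made as membrane-anchored precursors, and metalloproteases such as ADAM17 and ADAM10 cut them free. EGF, TGFA, AREG and EPGN bind EGFR, while HBEGF, BTC and EREG bind both EGFR and ERBB4, and NRG1 binds ERBB3 and ERBB4. Receptor activation signals through RAS and ERK, and several of the ligand genes are themselves induced by that signal, so that epithelial tumours often make their own ligand.

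Of the 8 genes, EPGN, EREG, AREG and BTC lie next to each other on chromosome 4. In the probe coordinates of the files (hg19), the EPGN probe is at chr4:75178782-75178841, the EREG probe at chr4:75254009-75254068, the AREG probes at chr4:75318293-75318352 and chr4:75320518-75320577, and the BTC probe, on the reverse strand, at chr4:75675838-75675897. The EGF probe is at chr4:110932689-110932748, the HBEGF probe at chr5:139713052-139713111 on the reverse strand, and the TGFA probes at chr2:70675319-70675378 and chr2:70683472-70683531, also on the reverse strand. The AREG probe A_23_P259071 lists a predicted RefSeq transcript beside that of AREG, so signal of a near-identical copy cannot be told apart from it.

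The 7 transfected microRNAs are shown because the AREG and BTC values differed among them. The labels do not name the arm, and the arm that gives each its usual name was taken from RefSeq. The seed (bases 2 to 8) is in capitals, and the 7 had 7 distinct seeds.
hsa-miR-145-5p: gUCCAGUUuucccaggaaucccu
hsa-miR-143-3p: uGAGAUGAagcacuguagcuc
hsa-miR-23b-3p: aUCACAUUgccagggauuaccac
hsa-miR-24-3p: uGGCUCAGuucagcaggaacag
hsa-miR-27b-3p: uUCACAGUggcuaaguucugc
hsa-miR-29a-3p: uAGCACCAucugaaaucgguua
hsa-miR-375-3p: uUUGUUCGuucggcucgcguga

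The 250 bases before the start of AREG, EREG and EPGN are shown because these neighbours had different levels among the lines. They come from the RefSeq promoter table (GRCh38.p14), on the forward strand of chromosome 4, at chr4:74444886-74445135 for AREG, chr4:74364895-74365144 for EREG and chr4:74308220-74308469 for EPGN. Capitals mark matches to TGACGTCA, the cyclic AMP response element, or TATAAA, the TATA box, searched on both strands.
AREG: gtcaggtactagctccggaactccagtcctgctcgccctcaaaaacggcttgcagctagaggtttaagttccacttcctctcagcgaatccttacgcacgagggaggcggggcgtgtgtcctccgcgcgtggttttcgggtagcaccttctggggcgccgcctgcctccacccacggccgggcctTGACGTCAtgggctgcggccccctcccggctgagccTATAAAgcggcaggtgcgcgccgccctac
EREG: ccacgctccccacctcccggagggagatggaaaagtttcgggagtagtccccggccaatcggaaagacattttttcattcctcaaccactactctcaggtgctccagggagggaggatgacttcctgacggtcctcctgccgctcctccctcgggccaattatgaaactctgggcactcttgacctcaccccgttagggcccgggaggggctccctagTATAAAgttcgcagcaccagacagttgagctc
EPGN: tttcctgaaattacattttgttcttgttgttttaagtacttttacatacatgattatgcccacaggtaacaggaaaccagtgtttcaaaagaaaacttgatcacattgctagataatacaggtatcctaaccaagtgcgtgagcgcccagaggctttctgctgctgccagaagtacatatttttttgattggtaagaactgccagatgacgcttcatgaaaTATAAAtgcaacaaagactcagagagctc
All 3 windows held TATAAA, which 10.7% of the 35116 promoters in the table held, and the AREG window also held TGACGTCA, which 1.65% held. Neither was found in the windows of EGF, TGFA, HBEGF and BTC. TGANTCA (AP-1), also searched on both strands, was found in the EGF window and in 6.57% of all promoters. These matches describe the letters of the windows only.

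The share of spots well above background ranged from 53.2% to 67.6% in Cy3 and from 54.2% to 68.9% in Cy5, with no ligand spot saturated. The siRNA targets were low on their own arrays: the log2 ratio of CAV2 was -3.80 in A498 and -3.20 in 786O, that of GOLM1 -3.02 in DU145 and -4.15 in PC3, and that of LAMB3 -2.50 in FaDu but only -0.89 in SAS. All 4 renal markers (PAX2, PAX8, CDH6 and CA12) were above background on every array of A498 and 786O, but PAX8 and CA12 were so on all 7 PC3 arrays as well and PAX8 on all 3 FaDu arrays. Of the 4 squamous markers, KRT5, KRT14 and KRT6A were above background on every array of FaDu and SAS, and TP63 on all but 1; KRT5 and TP63 were above it in no other line, while KRT14 and KRT6A were above it on all 4 DU145 arrays. The PC3 control channels differed between the designs: KRT6A was above background on 0 of 5 arrays of design A (mean level -6.64) and on 2 of 2 of design B (2.01), KRT14 likewise (-6.24 and 0.18), and FOLH1 on 4 of 5 (-1.94) and 0 of 2 (-6.60). Design and sample cannot be told apart in any comparison of PC3 between them. Among markers of other cell types, DCN of fibroblasts was above background in no control channel. COL1A1 of fibroblasts was above it in every line except SAS, PTPRC of leukocytes on all arrays of PC3, DU145 and 786O, and CDH5 of endothelium in every line. PECAM1, also of endothelium, was above background on all 5 PC3 arrays of design A (mean level -2.92) and 1 of 2 of design B. It was so on 1 of 2 DU145 arrays of design A and in no other line. The part of these markers in the results was not tested.

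The lines were first compared with no treatment, through their Cy3 control channels. A level is the log2 signal minus the 75th percentile of the array, so that 0 is that percentile. Levels of different probes are not comparable with each other, nor are those of the 2 designs, which were tested apart (limma, adjusted over all probes tested, with slide as a term on design A). Of 72 tests of a ligand between lines (8 ligands, 9 pairs of lines), 26 passed at an adjusted p under 0.05. The share of all genes called in either direction was 19.1% for PC3 against DU145, 30.9% for PC3 against FaDu, 23.6% for PC3 against SAS, 16.6% for DU145 against FaDu, 10.7% for DU145 against SAS and 16.9% for FaDu against SAS on design A, and 16.8% for PC3 against DU145, 24.6% for PC3 against 786O and 23% for DU145 against 786O on design B. By their brightest probes, EREG and NRG1 were called in 6 of 9 pairs each, AREG and EPGN in 5, BTC in 3, EGF in 1, and HBEGF and TGFA in none.

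**Figure D1:**
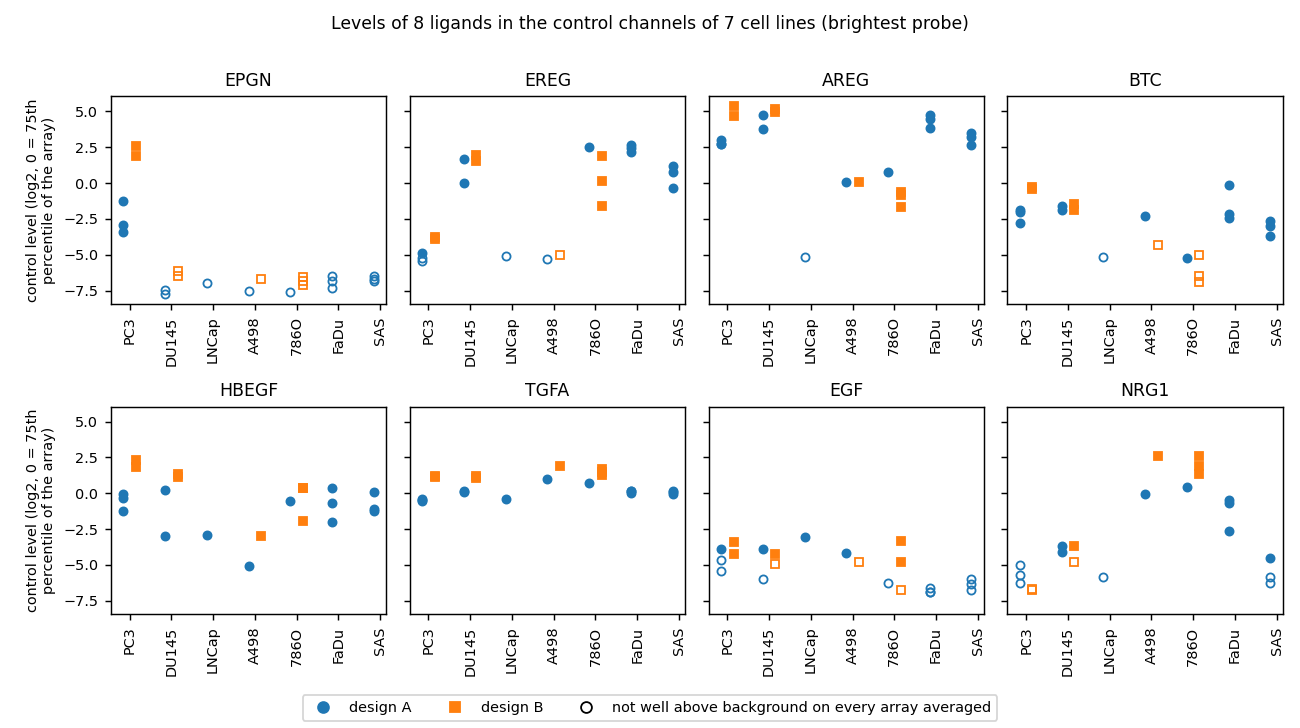
Control-channel levels of the 8 ligands by cell line (brightest probe; log2, with 0 at the 75th percentile of the array); each point is 1 control sample, blue circles are design A, orange squares design B, and open symbols were not well above background. EPGN has filled points in PC3 only, EREG lies low in PC3, LNCap and A498, and AREG lies lowest in LNCap at -5.17.

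EPGN (epigen), an EGFR ligand, was measured in PC3 only. Its control level in PC3 was -2.95, -1.27 and -3.40 in the 3 control samples of design A, and 1.90 and 2.55 in those of design B. It was well above background in 7 of 7 PC3 control channels and in 0 of 17 control channels of the other lines, where levels lay between -7.76 and -6.14. PC3 thus exceeded each of the other lines tested with no overlap, on both designs, although its samples of the 2 designs differed in the markers above. On design A it was at least 16.1-fold above DU145 (adjusted p = 0.000334, limma), at least 9.75-fold above FaDu (0.000361) and at least 8.22-fold above SAS (0.00179), the last not passing with normexp signals (adjusted p = 0.116, limma). On design B it was at least 96.5-fold above DU145 (adjusted p = 0.000126, limma) and at least 137-fold above 786O (2.55e-05). These folds are lower bounds, set against the lowest signal that counted as well above background. The EPGN probe entered these tests only because it was above background in PC3. The p-values thus add no separate support to its detection there.

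EREG (epiregulin), its neighbour and a ligand of EGFR and ERBB4, was lower in PC3 than in DU145, FaDu, SAS and 786O. Its level in PC3 was -5.43, -4.86 and -5.26 on design A, where 1 of 5 PC3 control channels was above background. In DU145 it was 0.04 and 1.70, in FaDu 2.15, 2.48 and 2.64, and in SAS 0.75, -0.33 and 1.21, all above background. PC3 did not overlap with any of them, and since 4 of its 5 channels were not above background, the sizes of the following design A differences are uncertain. The fitted difference PC3 minus DU145 was -6.10 ± 0.58 (SE; adjusted p = 0.000139, limma), and PC3 minus FaDu was -7.56 ± 0.52 (1.44e-05). The EREG probe entered the tests of design A only through lines where it was high, not through PC3. These p-values thus add no separate support to the low level in PC3. The same difference to DU145 on design B, with 2 other control samples of each line, was -5.60 ± 1.02 (adjusted p = 0.0160, limma), and leaving out any 1 of these 4 samples gave between 0.0854 and 0.100. EREG was not above background in LNCap or on either A498 array, while the renal line 786O held it at 2.52 on design A and at 1.86, 0.11 and -1.62 on design B. The 3 786O controls thus spread over more than 3 log2 units. PC3 minus 786O was -3.95 ± 0.93 (adjusted p = 0.0278, limma), and this call rested on single samples: without PC3 control of miR-143 the adjusted p was 0.137, without PC3 control of si-GOLM1 0.143, and without 786O control of CXCL10 12h 0.0783.

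AREG (amphiregulin), an EGFR ligand that RAS and cyclic AMP signals induce, was above background in 6 of the 7 lines. On design A its level was between 2.71 and 3.01 in PC3, 3.76 and 4.77 in DU145, 3.82, 4.47 and 4.77 in FaDu, and between 2.66 and 3.49 in SAS. The renal lines were lower, at 0.09 in A498 and 0.77 in 786O, and LNCap, at -5.17, was not above background. On design B, PC3 exceeded 786O by 6.10 ± 0.39 (adjusted p = 0.000206, limma) and DU145 exceeded it by 6.12 ± 0.39 (0.000255). PC3 against DU145 gave different results on the designs: PC3 minus DU145 was -1.61 ± 0.38 on design A (adjusted p = 0.0169, limma), but -0.02 ± 0.42 on design B (0.980). Within slide 1 alone the design A difference was -1.53 with an adjusted p of 0.120 (limma), and without DU145 control of miR-145 it was -1.11 with 0.102. FaDu exceeded SAS by 1.41 ± 0.34 (adjusted p = 0.0216, limma), a call that was lost when SAS control of wogonin (adjusted p = 0.0695), FaDu control of si-LAMB3 (0.0710) or FaDu control of wogonin (0.104) was left out.

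NRG1 (neuregulin 1), which signals through ERBB3 and ERBB4, was highest in the renal lines and differed between the head and neck lines. Probe A_33_P3284345 had its highest levels in A498 (-0.02 on design A) and 786O (0.43), an intermediate one in FaDu (-0.65, -2.60 and -0.46), and was above background on no PC3 array of design A. FaDu was at least 18.0-fold above PC3 (adjusted p = 0.000555, limma) and exceeded SAS by 4.02 ± 0.62 (0.00275), where SAS was above background on 1 of 3 arrays. On design A this probe entered the tests through A498, 786O, FaDu and DU145, not through PC3 or SAS. On design B the brightest probe, A_33_P3392192, was at least 87.4-fold above PC3 in 786O (adjusted p = 0.000110, limma). Probe A_23_P315815 was at least 39.6-fold above PC3 in 786O there (adjusted p = 0.000761, limma). These probes entered the tests of design B only through the renal lines, where they were high, so their p-values add no separate support. Probe A_33_P3284345 also passed (0.00582), with 1 of 2 PC3 arrays above background.

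BTC (betacellulin), a ligand of EGFR and ERBB4, was lowest in 786O and LNCap. On design A it was above background in 786O, at -5.19, and not in LNCap, at -5.18. A498 was at -2.31 there, but on design B at -4.32 and not above background. BTC was above background in no 786O control channel of design B, against -0.44 and -0.29 in PC3 and -1.48 and -1.85 in DU145. PC3 was at least 22.7-fold above 786O (adjusted p = 0.00104, limma), and DU145 at least 9.22-fold (0.00324). The BTC probe entered the tests of design B only through PC3 and DU145, where it was high. The PC3 minus FaDu difference was -1.16 ± 0.37 (adjusted p = 0.0401, limma), but not with the FaDu control of miR-375 left out (-0.51, adjusted p = 0.487). The call was also lost without the PC3 control of genistein (0.0927), the PC3 control of miR-145 (0.0813) or the FaDu control of si-LAMB3 (0.0658), and with no slide term (0.402).

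Among the pairs of lines tested, HBEGF, TGFA and EGF were called least by their brightest probes. HBEGF (heparin-binding EGF-like growth factor) was above background in every control channel, but its controls spread widely within a line, as in DU145 on design A (-2.98 and 0.25). The PC3 minus DU145 difference of 0.46 had a 95% interval from -1.66 to 2.57. A498 and LNCap were not tested. HBEGF was at -5.08 in A498 on design A and at -2.99 on design B, against mean PC3 levels of -0.54 and 2.09. In LNCap it was at -2.92. TGFA, read by A_33_P3408203, was the evenest: its lowest level on design A was -0.57, in PC3, and its PC3 minus FaDu difference was -0.54 (adjusted p = 0.0530, limma). The other TGFA probe, A_23_P377291, was called for DU145 minus 786O on design B (-1.46, adjusted p = 0.0308, limma). EGF was above background in 10 of 24 control channels and in no control channel of FaDu or SAS. PC3 was above FaDu for EGF on design A (adjusted p = 0.0203, limma). Only 2 of 5 PC3 channels there were above background, so the size, at least 2.24-fold by the bound, is uncertain. The call was lost without PC3 N2, the control shared by 3 arrays (0.112), without FaDu control of miR-375 (0.139), or with normexp signals (0.312).

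The treatments were then compared with the controls on each array. A log2 ratio is treated over control, given with the software's own error for that spot or mean of spots. The error does not hold biological spread, and with 1 array there is no test. A ligand was counted by its brightest probe where at least 1 channel was well above background. That gave 147 ligand values, of which 28 (19.0%) lay past 1.0 in either direction, 11 higher and 17 lower. Over all genes on the same arrays, 9.5% of values lay past 1.0. Arrays differed in this share for all genes, from 1.70% on DU145 with si-GOLM1 to 25.6% on PC3 with miR-24, and 26 of the 28 ligand values were on design A. On design B, 2 of 50 values lay past 1.0, on arrays where 1.70% to 4.27% of all genes did. PC3 gave 14 of 45 values, on arrays with 2.94% to 25.6% of all genes past 1.0. DU145 gave 4 of 26 (1.70% to 12.6%), FaDu 4 of 18 (10.7% to 22.6%) and SAS 5 of 17 (10.5% to 14.6%). LNCap gave 1 of 5 (8.96%), A498 0 of 12 (3.22% to 3.98%) and 786O 0 of 24 (2.91% to 4.10%). HBEGF and TGFA could be read on 24 arrays, AREG on 23, BTC on 21, EREG on 19, EGF and NRG1 on 14 each, and EPGN on 8. Means over the lines given a treatment were tested with limma for the 9 treatments on 2 or more arrays of a design, and only BTC and TGFA, both with miR-145, passed by their brightest probe. The share of all genes called higher and lower was 3.69% and 4.35% with genistein, 2.34% and 3.14% with si-LAMB3, 1.37% and 0.722% with wogonin, 0.0901% and 0.325% with miR-27b, 0.0158% and 0.163% with si-GOLM1, 0.0153% and 0.0509% with miR-143, 0.00511% and 0.046% with CXCL10, and 0% and 0.0747% with si-CAV2.

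**Figure D2:**
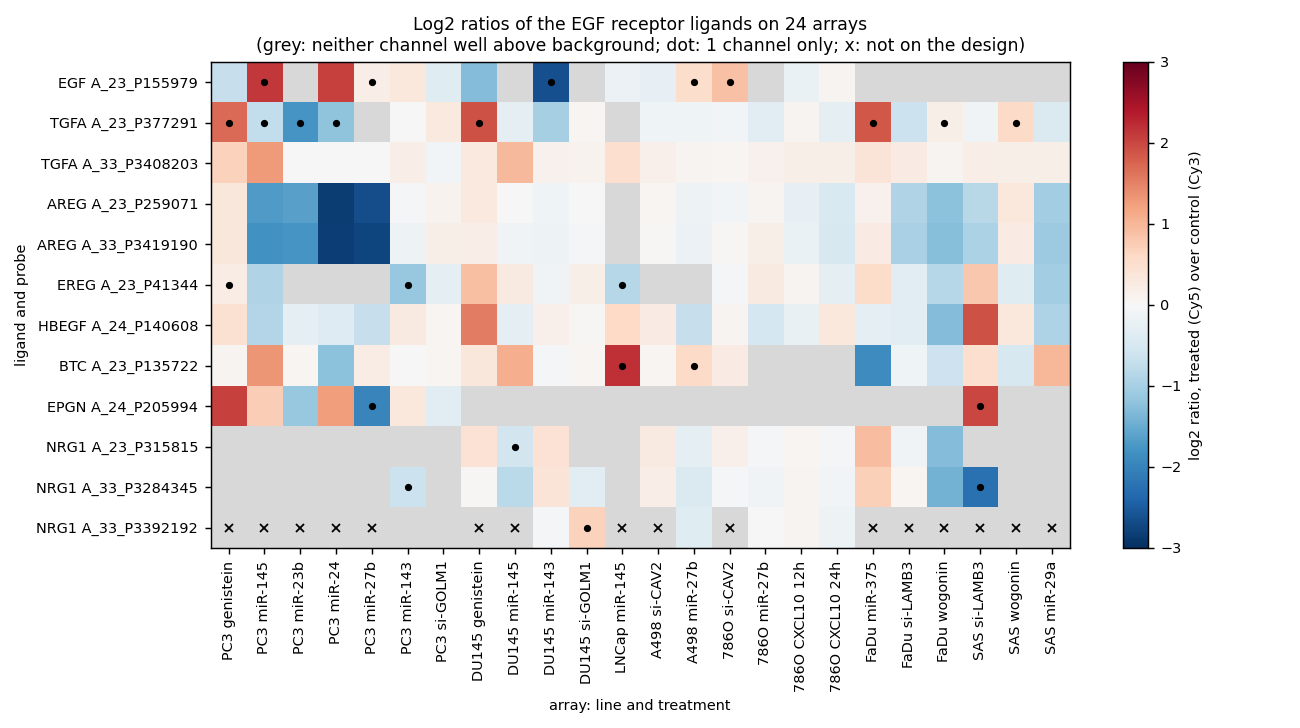
Log2 ratio (treated over control, colour from -3 to 3) of every ligand probe (rows) on each of the 24 arrays (columns, ordered by line). Grey marks values with neither channel well above background, dots values with only 1 channel, and crosses a probe not on the design; the 2 AREG rows are dark blue on 4 PC3 arrays, down to -2.85.

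AREG had 6 of the 17 low values and no high one. In PC3 it was below -1.0 with 4 of 5 microRNAs: the log2 ratio was -1.71 ± 0.26 (software error) with miR-145, -1.62 ± 0.25 with miR-23b, -2.85 ± 0.33 with miR-24 and -2.67 ± 0.32 with miR-27b. With miR-143 it was -0.07 ± 0.20. It was 0.10 ± 0.20 with si-GOLM1 and 0.34 ± 0.21 with genistein in the same line. The 4 low arrays were grouped by these values, so their distance from the 3 others is no separate result. Of the 4, 3 share their control sample. All 4 were on design A, and the miR-143 and si-GOLM1 arrays on design B, so microRNA and design cannot be told apart between them. With the mean of the other treatments subtracted, the values were -0.93 with miR-145, -0.89 with miR-23b, -2.20 with miR-24 and -2.01 with miR-27b. Of these 4, 2 were below -1.0. Each subtracted mean holds the other low AREG arrays of design A, which by itself moves the values toward 0. The subtraction thus does not isolate an offset of the probe. On these 4 arrays the share of all genes below -1.0 was 5.62% with miR-145, 4.94% with miR-23b, 11% with miR-24 and 4.99% with miR-27b. The other AREG probe, A_33_P3419190, gave -1.81, -1.77, -2.82 and -2.76 on the same arrays, and over the 23 arrays with both probes measured the largest difference between them was 0.15.

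Of these microRNAs, miR-145 and miR-27b were also given to other lines, where AREG was near 0 wherever it was measured. miR-23b and miR-24 were given to PC3 only. With miR-145 the ratio was -0.02 ± 0.20 in DU145, and in LNCap neither channel was above background. With miR-27b it was 0.08 ± 0.21 in 786O and -0.15 ± 0.21 in A498. These arrays each lie within their error of 0, against -1.71 and -2.67 in PC3; the difference between lines was not tested, and miR-27b in PC3 was on another design than in the renal lines.

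In the head and neck lines AREG was lower on 4 of 6 arrays. It was -1.04 ± 0.23 with miR-29a in SAS (3.61% of all genes were below -1.0 there), -1.22 ± 0.23 with wogonin in FaDu (2.89%), -0.91 ± 0.22 with si-LAMB3 in FaDu and -0.83 ± 0.22 with si-LAMB3 in SAS. It was 0.12 ± 0.20 with miR-375 in FaDu and 0.31 ± 0.21 with wogonin in SAS. The mean over both si-LAMB3 arrays, -0.87 (95% interval -1.90 to 0.16), did not pass (adjusted p = 0.275, limma), nor did the mean over both wogonin arrays (-0.45, adjusted p = 0.604).

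**Figure D3:**
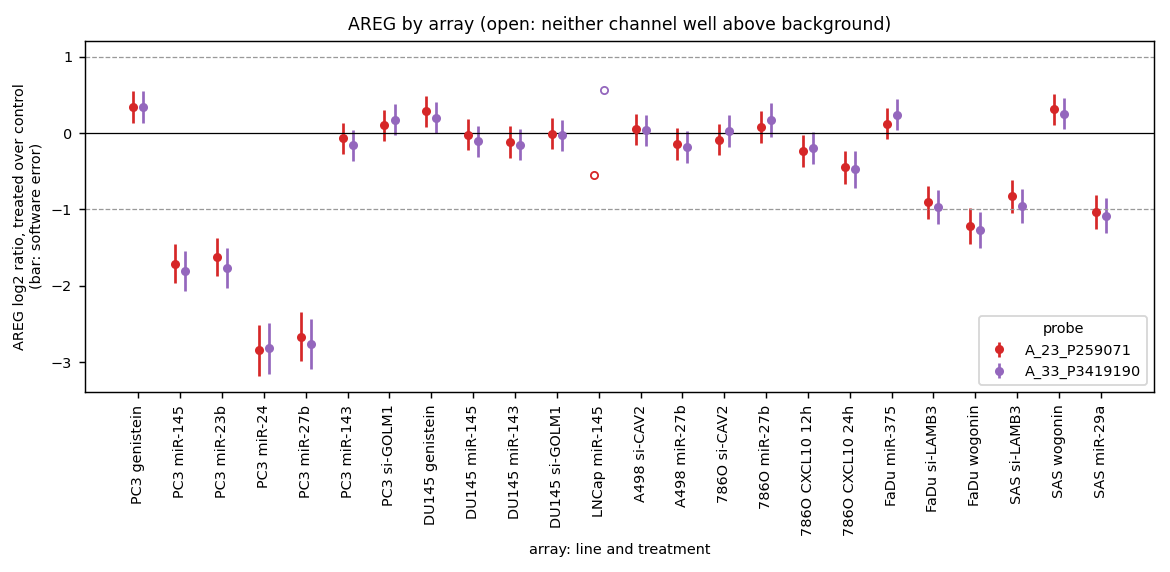
AREG log2 ratio on each of the 24 arrays, ordered by line, for its 2 probes (red and purple); bars are the software's error and dashed lines mark -1.0 and 1.0. PC3 with miR-145, miR-23b, miR-24 and miR-27b lies between -2.85 and -1.62, while DU145, A498 and 786O lie above -1.0 on every array.

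BTC rose with miR-145 in all 3 PCa lines. Its log2 ratio was 1.33 ± 0.24 in PC3 (8.29% of all genes were above 1.0), 1.09 ± 0.23 in DU145 (3.4%) and 2.18 ± 0.37 in LNCap (6.68%), where the control channel was not above background and the rise was at least 4.54-fold. The mean over the 3 lines was 1.53 ± 0.21 (SE, n = 3 arrays; adjusted p = 0.00714, limma), with 2.62% of all genes called higher and 2.41% lower. Leaving out each line in turn gave adjusted p-values from 0.0111 to 0.0403 (limma), but the call was lost where only the miR-145 arrays entered the fit (0.110). BTC moved the other way on 2 arrays: it was -1.89 ± 0.27 with miR-375 in FaDu (12.4% of all genes below -1.0) and -1.24 ± 0.31 with miR-24 in PC3. With normexp background correction the last was -0.43, and the LNCap value 0.65. It was 0.98 ± 0.24 with miR-29a in SAS. Its values with miR-143, miR-23b and miR-27b in the PCa lines lay between -0.03 and 0.23.

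TGFA (transforming growth factor alpha) was also higher with miR-145, by its brighter probe A_33_P3408203: 1.28 ± 0.24 in PC3, 0.96 ± 0.22 in DU145 and 0.51 ± 0.21 in LNCap. The mean was 0.92 ± 0.16 (SE, n = 3 arrays; adjusted p = 0.0171, limma). The call was lost without PC3 (0.74, adjusted p = 0.116), without DU145 (0.89, 0.0614), with only the miR-145 arrays in the fit (0.128), or averaged over both probes (0.38, 0.0958). The probe was above 0 on 21 of 24 arrays, with a median of 0.17, and the dyes were never swapped. With the mean of the other treatments subtracted, the miR-145 mean was 0.73 (adjusted p = 0.0314, limma). The other TGFA probe, A_23_P377291, which lies nearer the 3′ end of the gene, read the opposite on the same arrays: -0.74 in PC3, with the treated channel dim, and -0.27 in DU145.

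The 2 TGFA probes differed elsewhere too. Over the 14 arrays where both had both channels above background, they had opposite signs on 12, by a median of 0.34. With genistein A_23_P377291 was 1.70 ± 0.33 in PC3 and 1.92 ± 0.33 in DU145, at least 3.24-fold and 3.78-fold since the controls were dim, and its mean was 1.81 ± 0.20 (adjusted p = 0.0133, limma). A_33_P3408203 was 0.70 ± 0.21 and 0.29 ± 0.21 there (mean 0.49, adjusted p = 0.143, limma). Both probes were higher with genistein, but the size rested on the probe. In FaDu with miR-375 A_23_P377291 was at least 3.65-fold higher (10.2% of all genes were above 1.0), and in PC3 with miR-23b at least 3.38-fold lower, while the brighter probe read 0.38 and -0.01.

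**Figure D4:**
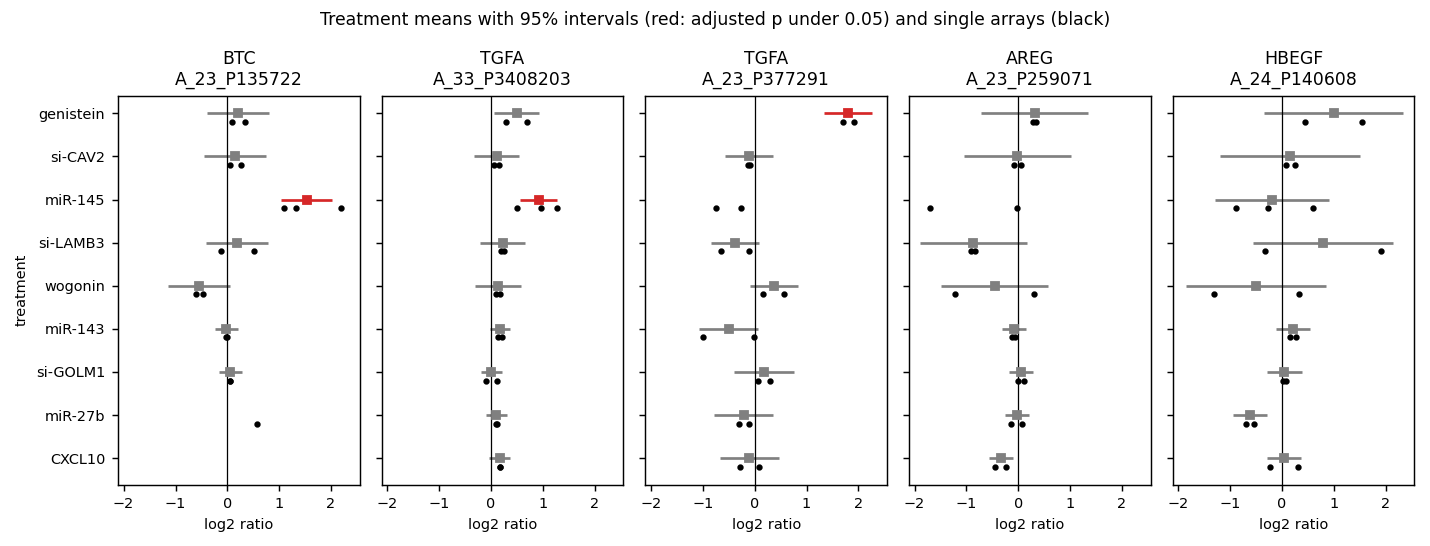
Treatment means (squares) with 95% intervals from limma for BTC, both TGFA probes, AREG and HBEGF over the treatments given on 2 or 3 arrays of a design; black points are the single arrays and red squares passed an adjusted p of 0.05. BTC and the brighter TGFA probe passed with miR-145 (means 1.53 and 0.92), and the other TGFA probe with genistein (1.81).

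HBEGF, a ligand that ERK signalling induces quickly, gave 3 values past 1.0. It was 1.54 ± 0.25 with genistein in DU145 (5.73% of all genes were above 1.0) but 0.45 ± 0.21 in PC3, and the mean of 0.995 did not pass (adjusted p = 0.316, limma). With si-LAMB3 it was 1.91 ± 0.27 in SAS (8.11%) and -0.32 ± 0.21 in FaDu, and with wogonin 0.32 ± 0.21 in SAS and -1.31 ± 0.24 in FaDu. SAS and FaDu thus took opposite signs under both treatments, and the target LAMB3 itself fell less in SAS. With miR-27b HBEGF was lower in all 3 lines, at -0.69 ± 0.22 in PC3, -0.54 ± 0.21 in 786O and -0.70 ± 0.27 in A498. The mean over the renal lines was -0.62 ± 0.14 (adjusted p = 0.135, limma). It was -0.92 ± 0.22 with miR-29a in SAS and -0.88 ± 0.22 with miR-145 in PC3. The 3 miR-145 arrays reached up to 0.59, and their mean of -0.19 did not pass (adjusted p = 0.859, limma).

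EREG stayed within 1.0 on 17 of the 19 arrays where it was measured. It was -1.04 ± 0.23 with miR-29a in SAS, as was AREG. The other low value, -1.15 ± 0.51 with miR-143 in PC3, had a dim treated channel and was at least 1.78-fold lower (1.54% of all genes were below -1.0). Its higher values were 0.90 ± 0.22 with genistein in DU145 and 0.80 ± 0.22 with si-LAMB3 in SAS, the arrays on which HBEGF was highest.

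EPGN ratios could be read on the 7 PC3 arrays and on 1 SAS array. They were 2.06 ± 0.29 with genistein (10.4% of all genes were above 1.0), 1.25 ± 0.28 with miR-24 (14.6%), 0.73 ± 0.22 with miR-145, 0.31 ± 0.21 with miR-143, -0.32 ± 0.21 with si-GOLM1 and -1.14 ± 0.36 with miR-23b. With miR-27b the treated channel was dim and EPGN was at least 3.93-fold lower. The 3 arrays with the shared control thus took both signs. AREG was below -1.0 on all 3 of them, and EREG was above background in neither channel of any. In SAS with si-LAMB3 EPGN appeared in the treated channel only, at least 2.14-fold higher. With normexp background correction the only EPGN value past 1.0 was that of genistein, at 1.25.

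EGF itself was dim and its ratios had large errors. With genistein the DU145 value was -1.30 ± 0.33, on an array with 6.85% of all genes below -1.0, and the PC3 value -0.70 ± 0.36 (mean -0.996, adjusted p = 0.343, limma). In PC3 it was 2.06 ± 0.34 with miR-24 and at least 4.35-fold higher with miR-145, where the control was dim. In DU145 with miR-143 it was at least 1.67-fold lower (1.6% of all genes were below -1.0). With normexp background correction no EGF value was past 1.0. NRG1 was lower with wogonin in FaDu by both probes of design A, at -1.42 ± 0.25 and -1.31 ± 0.24, and at least 4.07-fold lower with si-LAMB3 in SAS, where 6.53% of all genes were below -1.0. In the renal lines, where its level was highest, NRG1 stayed between -0.43 and 0.27 on every array and probe.

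With CXCL10 in 786O no ligand passed. AREG was -0.24 ± 0.21 at 12 h and -0.45 ± 0.21 at 24 h (mean -0.34, adjusted p = 0.429, limma). With si-CAV2, si-GOLM1 and miR-143 the values with both channels measured stayed between -0.35 and 0.31 for every ligand's brightest probe.

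The receptors were followed on the same arrays. EGFR was above background in both channels of all 24 arrays and rose with genistein, by 1.95 in PC3 and 1.44 in DU145 (mean 1.70 ± 0.17, adjusted p = 0.00962, limma). On the other 22 arrays EGFR lay between -0.71 and 0.08. ERBB2 was lower than -1.0 with genistein in DU145 (-1.14), miR-375 in FaDu (-1.11), si-LAMB3 in SAS (-1.43) and miR-24 in PC3 (-1.24), and no treatment mean passed. ERBB3 was -0.89 and -0.77 with genistein (adjusted p = 0.0761, limma). ERBB4 was above background in at least 1 channel on 6 arrays only.

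Of the other ligands of the family, NRG4 was below 0 on 21 of 23 arrays with a median of -0.95, whatever the treatment, and NRG3 was above background on 2 arrays. Since the dyes were not swapped, a dye effect of the NRG4 probe and a treatment effect cannot be told apart. NRG2 could be read on 17 arrays and was above 0 on 9; its low values with both channels measured were -1.15 with genistein, -1.80 with miR-23b and -1.84 with miR-24, all in PC3, and its high ones had a dim control. Among 11 genes of shedding and transport and 10 negative regulators, none was called in any of the 9 treatment means. Among 5 adaptors, PTPN11, the phosphatase SHP2, was lower with miR-145, at -1.07 in PC3, -0.84 in DU145 and -0.35 in LNCap (mean -0.75 ± 0.16, adjusted p = 0.0406, limma).

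The 16 transcripts that ERK signalling induces were read as a list. None of them was called in any treatment mean. Their median mean ratio with miR-145 was 0.89, beside -0.04 for all genes. The LNCap array had a median of 3.92 over 13 measured members, 8 of them above 1.0 (6.68% of all genes were) and none below -1.0, with EGR1 at 5.93, PLAUR at 4.83 and FOS at 4.29. In PC3 and DU145 the medians with miR-145 were -0.37 and 0.08. AREG, EREG and EPGN had no measured control level in LNCap. Only for AREG was this particular to LNCap: EREG also had none in A498, and EPGN had none in any line but PC3. The median was 1.31 in FaDu with miR-375, where 10 of 16 were above 1.0 (10.2% of all genes), 1 was below -1.0 (VEGFA, -1.70) and DUSP6, an ERK phosphatase, was at 3.02; AREG was at 0.12 and HBEGF at -0.26 there. It was -0.87 in FaDu with wogonin, where 7 of 16 were below -1.0 (2.89% of all genes), DUSP6 was at -2.09 and AREG, HBEGF and NRG1 were also below -1.0. With genistein it was 0.92 in DU145 (7 of 15 above 1.0 and 2 below -1.0, against 5.73% and 6.85% of all genes), where HBEGF was 1.54, and -0.76 in PC3, where HBEGF was 0.45 and AREG 0.34. With si-LAMB3 it was 0.56 in SAS (6 of 16 above and 2 below, against 8.11% and 6.53%), where HBEGF was 1.91 and AREG -0.83. The list and the ligands thus did not share a direction on every array.

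The genes whose log2 ratios were most like those of a ligand over the 16 arrays of design A were named by Pearson's r among 11876 or 11877 genes measured on all of them. For TGFA they were RHBDL1 (r = 0.88), the unnamed probe A_24_P255874 (0.88) and LGALS3BP (0.87). For HBEGF they were UPP1, INO80 and BMS1 (0.85 each), and for BTC XBP1 (0.88), MAP3K10 (0.88) and FBXO7 (0.87). Over the 8 arrays of design B, r was 0.72 for RHBDL1, 0.74 for LGALS3BP and -0.16 for A_24_P255874. It was 0.54 for UPP1, 0.29 for BMS1 and 0.09 for INO80. The 3 genes like BTC have no r on design B, where BTC was read on 5 arrays. For AREG, added after its values were seen and read over 15 arrays, the most like were C3orf25 (r = 0.96), MAPKAPK3 (0.89) and RPIA (0.87). Over design B their r was 0.05, -0.63 and -0.30. These are descriptions over arrays that share lines and a control.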

How the data were processed

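Total gene expression was measured on 24 two-colour Agilent arrays, scanned and read by the authors with Agilent Feature Extraction 10.7.3.1, per the file headers. The deposited files give processed signal intensity in each channel, already background-subtracted and dye-normalized, and the log10 ratio of Cy5 over Cy3; the value table of the series holds the same ratios. The authors' log10 ratios were turned to log2 (times 3.32), and outlier spots and control spots were left out before the spots of a probe were averaged. For each channel, a probe counted as detected if the software marked a share of 0.5 or more of its spots as well above background. A gene was counted by its brightest probe. The members, gene lists and motifs were chosen with earlier results of these data known.

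Treatment means were tested against 0 with limma 3.58.1 in R 4.3.3 (lmFit, eBayes). Each treatment had 1 coefficient, and each design was fitted apart. The lines, or the 2 times of CXCL10, stand in for replicates. Their spread was pooled over the treatments of a design, so an SE is not that of 1 treatment's own lines. The SE of BTC, for example, was 0.261 with genistein, si-CAV2, si-LAMB3 and wogonin alike. Values with both channels dim were set to missing. Levels were the log2 Cy3 signal minus the 75th percentile, fitted by line with slide as a term on design A; the 3 PC3 arrays with 1 control name were averaged first. Adjusted p is Benjamini-Hochberg over all tested probes. Between lines, a probe was tested if it was above background in Cy3 on every array of at least 1 line. A bound of at least N-fold sets the bright side against the higher of the dim signal and the lowest signal well above background. The fits were tested on simulated data. The treatment fits called 179 (design A) and 181 (design B) of 200 changes of 1 on the log2 scale. The line fits, for PC3 against DU145, called only 47 and 17 of 200. Of 200 changes of 2 they called 159 and 98. A line difference that was not called thus does not show equal levels. Alternatives were normexp (offset 50) or no background correction with loess, median centring, other filters, mean over probes, quantile normalization, no slide term and leaving out each sample. All 8 ligands, the 4 receptors, list genes called or past 1.0 on every array of a treatment, and the 3 genes most like a ligand are named. Nothing says that control samples came from separate cultures. The number of arrays limits the precision. The microRNA arms are not given in the sources used here.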

Additional observations from a re-analysis of the deposited data

Results flagged for a closer look

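HBEGF with si-LAMB3 was 1.91 in SAS and -0.32 in FaDu, 2.24 apart. HBEGF with wogonin was 0.32 in SAS and -1.31 in FaDu, 1.63 apart. AREG with wogonin was 0.31 in SAS and -1.22 in FaDu, 1.53 apart. In these 3 the same treatment gave opposite signs in 2 lines, each past the software's error, with 1 of the 2 values past 1.0. Opposite signs with no value past 1.0 also occurred. EREG with si-LAMB3 was -0.33 in FaDu and 0.80 in SAS, and HBEGF with miR-145 ranged from -0.88 to 0.59. The differences were not tested, since each line had 1 array per treatment.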

How the results depend on the processing

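Leaving out each sample in turn, 1 to 2 ligand means and 21 to 28 line differences passed, against 2 and 26 with all samples. The ligand values past 1.0 by array fell from 28 to 12 with normexp and loess and to 14 with no background correction, where the same 28 values shrank to a median of 66.7% and 76.5% of their size, and 56 passed a limit of 0.5. The count of ligand means fell from 2 to 1 where both channels had to be above background, which leaves BTC in LNCap out, and to 0 where only the arrays of a treatment entered the fit. There BTC with miR-145 had an adjusted p of 0.110 and TGFA 0.128. Averaged over both its probes, TGFA with miR-145 was 0.38 (adjusted p = 0.0958) and TGFA with genistein 1.15 (0.0146). Minus the mean of other treatments, AREG with miR-29a in SAS was -0.26 and with wogonin in FaDu -0.38. Those means hold the low AREG values of PC3. No value past a limit or test changed direction under any alternative run. In settings chosen after the data were seen, 22 array values passed when the 3 PC3 arrays with a shared control were averaged, and 34 array values, 3 means and 28 line differences passed when any probe of a gene could. No paired analysis was possible because each group had 1 replicate number. Each ratio already sets treated against control RNA of 1 line, and no term for the line was fitted.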
